A study of Mus musculus with 10 samples.

Results

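Histone genes encode the proteins on which DNA is wound, and 79 of them were followed here in RNA-seq of Lin- bone marrow cells, the fraction depleted of cells that carry surface markers of mature blood lineages. They were the protein-coding genes, among 55359 genes in the expression table, whose symbols name a linker histone (H1), a core histone of the replication-dependent kind (H2A, H2B, H3 or H4) or the variants H2A.Z, H2A.X and replication-independent H3. By symbol, 68 were taken as clustered, replication-dependent genes (H2ac, H2bc, H3c and H4c genes and H1f1 to H1f6) and 11 as variant genes (H1f0, H1f7 to H1f10, H2az, H3f and H2ax), and 8 further genes with such symbols that do not code for protein were left out. Of the clustered genes, 54 lay on chromosome 13, 10 on chromosome 3, 3 on chromosome 11 and 1 on chromosome 6, whereas the variant genes were spread over chromosomes 1, 3, 6, 9, 11 and 15. The libraries came from mice with floxed Dhx9, the gene of an RNA helicase: 5 were labelled Dhx9f/f (WT) and 5 Dhx9f/f;MX1 (cKO, also labelled as a Dhx9 knock down). Both groups thus carried the floxed allele, and the cKO mice also carried MX1-Cre, a recombinase driven by an interferon-responsive promoter that is active in many cell types and is switched on with poly(I:C), an RNA mimic. By the study's general methods, mice were taken a week after poly(I:C) was begun unless stated otherwise, and their sex was randomized. Age and whether the WT mice received poly(I:C) are not given in the sources used here. The labels give replicate numbers only, and the general statement is that replicates were individual mice, so the p-values measure the spread between these libraries.

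Most of the histone protein that packages newly copied DNA comes from the clustered genes, which have no introns and are transcribed mainly in S phase. Their mRNA ends in a conserved stem-loop, cut under the direction of the stem-loop binding protein SLBP, instead of a poly(A) tail. Variant histones such as H2A.Z, H2A.X and H1.0 are mostly made from polyadenylated mRNA throughout the cell cycle and take up particular tasks, among them marking promoters, signalling DNA breaks and compacting chromatin in cells that stop dividing. In the bone marrow, fast-dividing progenitors depend on the clustered supply, while H1.0 is known to build up in cells that leave the cycle.

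The stem-loop is the feature that separates the classes in sequence, and it was searched, as the consensus GG, any 3 bases, TTT, any 2 bases, A, any 3 bases and CC, on the coding strand within 150 bases past each annotated stop codon of GRCm39. It was found in 64 of the 68 clustered genes and in 2 of the 11 variant genes, H2ax and H3f4. The clustered genes without it were H2ac22, H2bc21, H3c8 and H4c1. H3f4 lies on chromosome 11, like 3 clustered genes, so its symbol places it among the variants while its end has the form of a clustered gene. The stem-loops below are those of the genes on which the results turn, each with 5 bases on either side, and the capitals mark the 16 bases of the stem-loop.
H4c9: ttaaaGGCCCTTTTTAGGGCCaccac
H4c12: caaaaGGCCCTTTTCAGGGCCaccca
H4c17: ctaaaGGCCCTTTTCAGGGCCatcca
H4c18: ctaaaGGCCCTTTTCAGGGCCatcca
H1f2: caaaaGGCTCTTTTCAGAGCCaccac
H2bc4: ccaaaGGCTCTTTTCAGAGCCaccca
H1f5: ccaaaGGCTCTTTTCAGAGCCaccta
H2ax: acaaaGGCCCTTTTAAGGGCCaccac
Among clustered genes, the H4 genes carried stems of their own. In 10 of the 12 H4 genes with a match the stem read GGCCC against GGGCC, as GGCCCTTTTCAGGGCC in 8 and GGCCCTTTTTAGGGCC in 2, and the remaining 2 held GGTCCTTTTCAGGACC. None of the 52 clustered H1, H2A, H2B and H3 genes with a match had these stems, and the most frequent form in all 4 families was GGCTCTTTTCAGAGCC, found in 42 of them. H4c17 and H4c18, which fell together, had the same 26 bases, and H4c12, which rose, shared their 16-base core.

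The promoters of the clustered genes also had letters in common. In the 250 bases before the annotated start (RefSeq, GRCm38.p6, 58 clustered and 9 variant genes matched), the CCAAT box stood in 48 clustered promoters (82.8%). The share over all 27025 genes with a promoter was 37.5%, searched on both strands. Here and where all promoters are named below, a gene counted once, if any of its listed promoters matched. TATAAA was found in 28 clustered promoters (48.3%, all promoters 14.3%). The octamer ATTTGCAT, known from H2B promoters, was found in 7 of 14 H2B and 6 of 17 H2A promoters and in 1.8% of all promoters. TTTCGCGC or TTTGGCGC, forms of the E2F site, stood in 7 clustered promoters (12.1%, all promoters 0.8%). H4 promoters differed from the rest: CCAAT was in 3 of 11, and GGTCCG, the core of the H4 element bound by the factor HINFP, was in 8 of 11 (72.7%, all promoters 7.7%). That last motif was added after the values had been seen. A match is a string of letters and not a site shown to be bound. The 150 bases before the start are shown for 3 H4 genes because H4 genes changed in opposite directions, with GGTCCG in capitals.
H4c9 (chr13:22041363-22041512, minus strand): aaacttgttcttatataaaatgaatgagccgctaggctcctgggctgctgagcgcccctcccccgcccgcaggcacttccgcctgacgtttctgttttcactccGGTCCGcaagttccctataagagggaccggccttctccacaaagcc
H4c12 (chr13:21750554-21750703, minus strand): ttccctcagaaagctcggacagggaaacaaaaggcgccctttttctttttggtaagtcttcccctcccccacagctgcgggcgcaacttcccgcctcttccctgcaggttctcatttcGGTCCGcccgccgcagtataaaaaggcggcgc
H4c17 (chr13:21811596-21811745, plus strand): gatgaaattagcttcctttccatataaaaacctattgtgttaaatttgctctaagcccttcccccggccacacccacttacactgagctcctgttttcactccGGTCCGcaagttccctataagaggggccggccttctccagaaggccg
The promoter of H4c18 (chr13:21832198-21832347, minus strand) shared a run of 149 bases with that of H4c17. H4c9, which rose while both of these fell, shared a run of 38 bases with each of them around GGTCCG, and H4c12 shared 8 bases with H4c17.

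Before the groups were compared, the libraries were checked against their labels. Depth, read from the steps of the FPKM values (fragments scaled to the length of the gene and to the size of the library), was 13832049 to 18710624 fragments per library, so 3 fragments on a gene of 1 kb were worth 0.16 to 0.217 FPKM. The targeted gene went against the labels: Dhx9 was at 65.43 to 72.42 FPKM in the libraries labelled WT and at 130.82 to 156.49 in those labelled cKO (log2 fold change 1.0, limma with Benjamini-Hochberg adjusted p = 1.39e-05). Groups are therefore named by their labels, and each direction below rests on them. Xist exceeded 99 FPKM in WT libraries 3 to 5 and stayed under 0.1 in all others, and the Y-linked Ddx3y was at most 0.05 FPKM in those 3 and 19.66 to 38.53 elsewhere, so sex-linked RNA was mixed in WT and uniform in the libraries labelled cKO. Cell type markers moved as well. All 14 erythroid markers tested passed an adjusted p of 0.05 upwards, and 7 of them were called higher, which also needed a 2-fold difference. The summed levels of the 14 were 1178 to 2516 FPKM in WT and 3307 to 4748 in the libraries labelled cKO. Of 15 monocyte and dendritic cell markers, 14 were called lower (943.6 to 1637 against 9.04 to 291.8 FPKM). Called lower were also 8 of 10 stem and progenitor markers (103.6 to 136.4 against 23.52 to 49.61 FPKM), 5 of 15 neutrophil markers (2752 to 3742 against 149.8 to 2680) and 7 of 13 B, T and NK cell markers tested (191.5 to 229 against 10.22 to 86.53). Of all genes tested, 4.60% were called higher and 16.8% lower, and 16.7% were higher on adjusted p alone. No listed marker was at 0 throughout a group. Of the 10 stem and progenitor markers, which the Lin- label calls for, 2 averaged under 1 FPKM in WT and 4 in the libraries labelled cKO. The part of these shifts in the histone values was not tested. In bulk RNA, fewer cells of a type and less RNA per cell cannot be told apart.

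Levels spanned a wide range and split by class. The median gene of the 11 variants was at 37.5 FPKM over the 10 libraries, and the median of the 68 clustered genes was at 0.451 FPKM, or 4.55 fragments a library. Only 16 clustered genes reached a mean of 1 FPKM, and 7 clustered genes (H2ac1, H2ac18, H2ac19, H2bc1, H2bc18, H3c13 and H3c14) and 3 variants (H1f7, H1f8 and H1f9) were listed at 0 in every library. H1f7, H1f8 and H1f9 encode linker histones of the germ line. A level of 0 in a clustered gene carries less weight where its sequence is repeated, since all of the 100-base windows of H2ac19 and 95.9% of those of H2ac18 occur elsewhere in the genome.

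**Figure D1:**
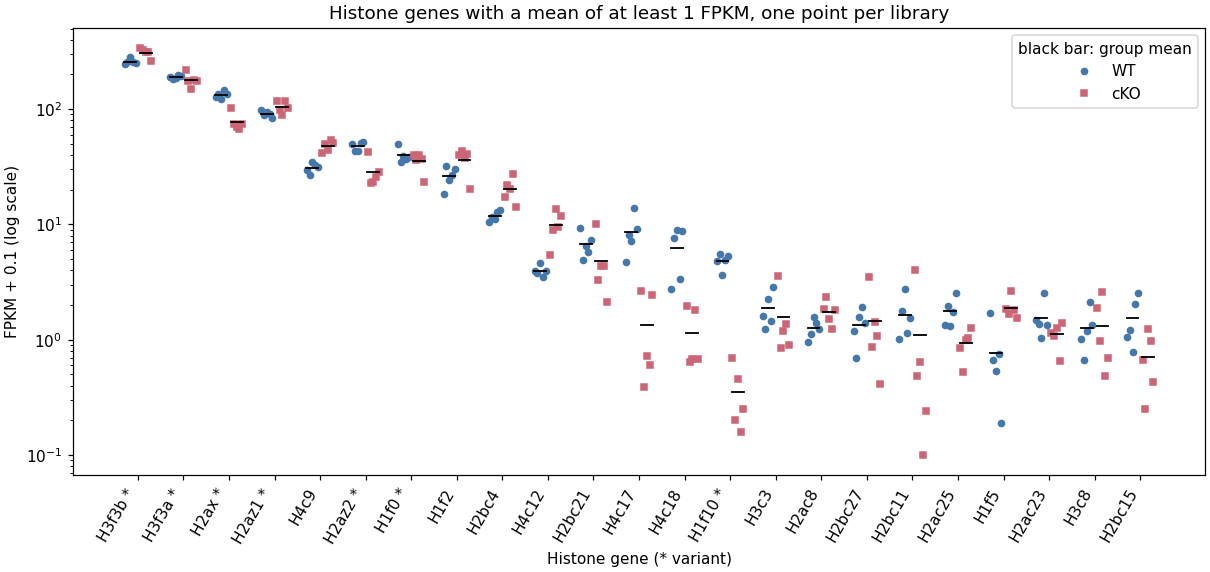
FPKM + 0.1 (log scale) of the 23 histone genes that averaged 1 FPKM or more, in order of mean level, with a point for each of the 10 libraries and a bar at the mean of each label, variant genes starred. H4c9, H2bc4 and H4c12 lie above WT in every library labelled cKO, H4c17, H4c18, H1f10, H2ax, H2az2 and H2ac25 lie below it, and the 4 most abundant genes are all variants. Of all genes tested, 10.6% lie wholly above WT in this way and 21.6% wholly below.

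The order of the levels, from H3f3b at 283.4 FPKM through H3f3a (184.6), H2ax (105.3), H2az1 (97.96), H4c9 (39.42), H2az2 (38.15), H1f0 (37.46), H1f2 (31.33) and H2bc4 (15.98) to H4c12 (6.795), put only 1 clustered gene above 38.15 FPKM on this per-length scale. H4c9, H2az2 and H1f0 were within the spread of their libraries, and so were H2ax and H2az1. The clustered genes as a whole held 12.3% to 15.5% of the summed FPKM of all 79 genes in WT and 15.5% to 17.9% in the libraries labelled cKO. Library selection, by poly(A) tail or by removal of ribosomal RNA, is not given in the sources used here, and these levels are of the RNA that entered the libraries.

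The level of a clustered gene was also set beside how far its annotation runs past the stem-loop. H4c9, H1f2 and H2bc4 are annotated 330, 840 and 9518 genomic bases past their stem-loops, and H2bc21, with no stem-loop found in the window, had 5.702 FPKM. Among the 64 clustered genes with a stem-loop, the 23 annotated at least 300 bases past it included the 3 with the highest level (maximum 39.42 FPKM), but their median, 0.414 FPKM, was close to the 0.475 FPKM of the other 41, whose maximum was 6.795 FPKM. FPKM is divided by the length of the gene, so a long annotated end lowers it. In fragments, the medians of the sets were 8.9 and 3.9 a library. By the limma test described next, 0 genes were called higher and 2 lower among 18 tested of the first set (median log2 fold change -0.14), and 3 and 5 among 33 of the second (-0.42). At an unadjusted p under 0.05, 3 genes of the first set were higher and 4 lower, and 3 and 8 of the second. Of all genes tested, 4.60% were called higher and 16.8% lower. The difference between the sets was not tested. The gene-level FPKM do not show whether fragments came from before or after the stem-loop.

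**Figure D2:**
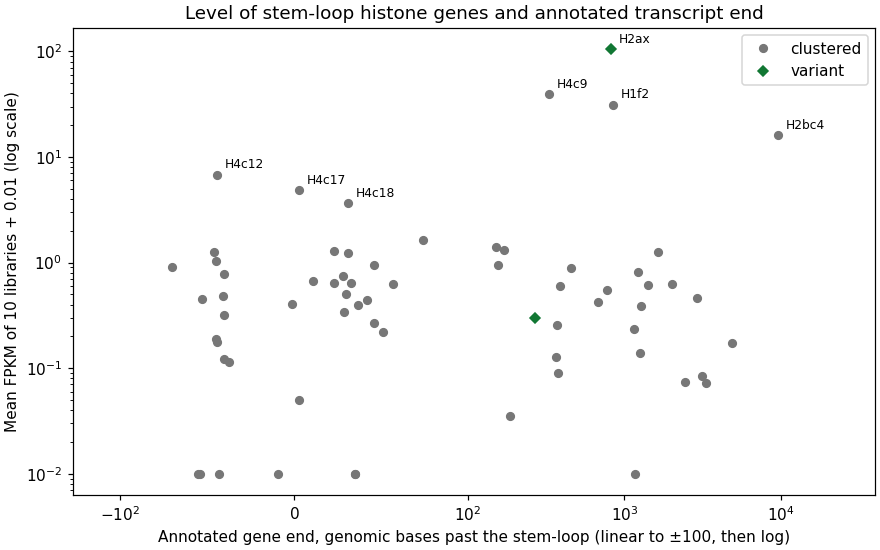
Mean FPKM + 0.01 over 10 libraries (log scale) against the distance in genomic bases from the stem-loop to the annotated end of the gene (negative where the annotation stops before it), for the 64 clustered and 2 variant genes with a stem-loop. H4c9, H1f2, H2bc4 and the variant H2ax combine a long annotated end with a high level, while most genes with an end as long stay near or under 1 FPKM.

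The main comparison asked which histone genes differed between the genotypes. It was made by limma on log2(FPKM + 0.1), which understates the change of low genes, over the 18742 genes that averaged 0.1 FPKM or more (two-sided, Benjamini-Hochberg), and a call needed both an adjusted p under 0.05 and a difference of 2-fold or more. Of the 79 histone genes, 63 were tested. Among 55 clustered genes tested, 3 were called higher (H1f5, H2ac4 and H4c12) and 7 lower (H4c17, H4c18, H4c3, H2ac6, H2ac10, H2ac20 and H2ac21) in the libraries labelled cKO. H2ac21, at 0 in every library labelled cKO, passed the filter through WT alone, so its direction was fixed in advance. Over all genes tested, 4.60% were called higher and 16.8% lower, so the clustered shares, 5.45% and 12.7%, were near the background. In both directions together, 11 of the 63 histone genes were called, and 21.4% of all genes. Among 8 variant genes tested, 1, H1f10, was called lower and 0 higher, with 2 higher at an unadjusted p under 0.05. On the adjusted p alone, 6 clustered genes were higher and 8 lower, and 1 variant was higher and 3 lower, where 16.7% of all genes were higher and 28.3% lower (45.0% together). The median log2 fold change was -0.30 over the clustered genes tested, -0.15 over the variants and -0.11 over all genes, and quantile normalization, which moved the median of all genes to 0.10, turned that of the clustered genes to 0.09. With a pseudocount of 1, which weighs low values less, H4c12, H4c17 and H4c18 were the clustered genes called. Many clustered calls rest on few fragments. Of the 11 genes that averaged 20 fragments or more over all libraries, 1 was called higher (H4c12) and 3 lower (H4c17, H4c18 and H2ac6). These are 9.09% and 27.3%, against 4.60% and 16.8% of all genes tested. H4c17, H4c18 and H2ac6 were under 20 fragments in every library labelled cKO, and H4c12 was at 18 to 22 in WT. Such a limit on the mean lets genes in through the group where they are high, so these counts lend the calls no weight.

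**Figure D3:**
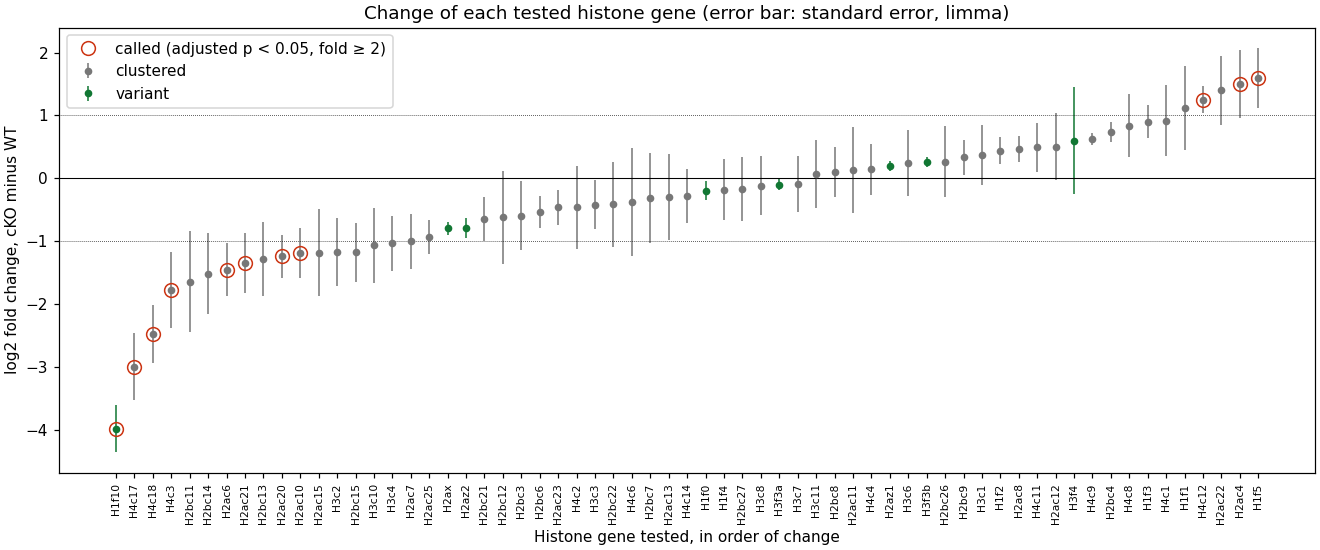
log2 fold change (cKO minus WT, limma, error bars 1 standard error) of the 63 histone genes tested, in order of change, with called genes ringed. Changes run from -3.99 for H1f10 to 1.6 for H1f5, and many low clustered genes with folds near those of called genes have wide errors and are not called.

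The summed level of the clustered genes was 107.9, 122.7, 133.8, 128.5 and 139.6 FPKM in WT libraries 1 to 5 and 163.5, 150.3, 149.4, 159.6 and 120.8 FPKM in cKO-labelled libraries, so the groups overlapped through cKO library 5. The 4 most abundant clustered genes, H4c9, H1f2, H2bc4 and H4c12, together held 62.09 to 79.07 FPKM in WT and 96.53 to 131.4 FPKM in cKO-labelled libraries. The other 64 genes summed to 45.8 to 60.56 FPKM in WT and to 59.3, 26.64, 34.88, 28.14 and 24.32 FPKM in cKO libraries 1 to 5, all of the last 4 below WT. The 4 genes were chosen by their mean over all 10 libraries, and H4c12 entered through the libraries labelled cKO, being below H4c17, H2bc21 and H4c18 in WT. The choice thus fixed part of the direction of both sums, which are descriptions and were not tested. By family, H4 summed to 54.39 ± 6.85 FPKM in WT and 64.78 ± 4.19 in the libraries labelled cKO, H1 to 27.62 ± 4.68 and 39.12 ± 9.71, H2B to 27.84 ± 2.37 and 31.88 ± 8.17, H2A to 10.41 ± 1.14 and 7.806 ± 1.09, and H3 to 6.248 ± 0.998 and 5.16 ± 2.88 (SD, n = 5 each). The clustered H3 genes thus gave the smallest sum of any core histone, far below the 2 H3f3 variants.

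**Figure D4:**
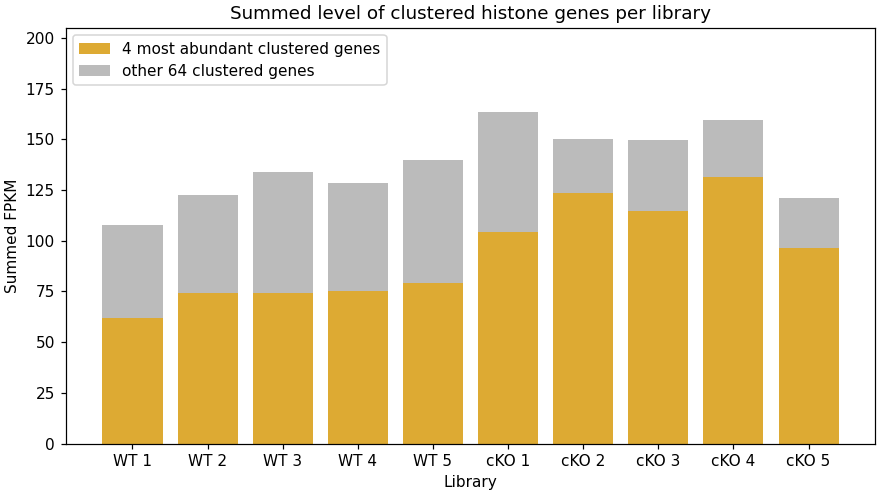
Summed FPKM of the 68 clustered genes in each of the 10 libraries, split into H4c9, H1f2, H2bc4 and H4c12 (lower part of each bar) and the other 64 genes (upper part). The lower part is 62.09 to 79.07 FPKM in WT and 96.53 to 131.4 in the libraries labelled cKO, and the upper part is below every WT value in cKO libraries 2 to 5 but not in cKO library 1, a split whose direction is partly fixed by choosing the 4 genes on their mean over all libraries.

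Histone H4, the core histone that pairs with H3, has many genes for the same protein, and these changed in both directions. H4c9 (ENSMUSG00000060639, chr13:22224806-22225532, minus strand, GRCm39) was at 29.56, 26.79, 34.43, 32.64 and 31.46 FPKM in WT, and at 41.45, 49.29, 43.88, 54.17 and 50.55 FPKM in cKO-labelled libraries. All 5 of the latter lay above all 5 WT libraries, as did 10.6% of all genes tested. The log2 fold change was 0.62 (standard error 0.0907 and adjusted p = 3.48e-04), short of the fold limit. H4c12 (ENSMUSG00000064288, chr13:21934364-21934675, minus strand) went from 3.85, 3.67, 4.56, 3.43 and 3.84 FPKM to 5.33, 8.76, 13.38, 9.45 and 11.68 FPKM. Its groups did not overlap, and it was called higher, by 1.25 on the log2 scale (standard error 0.213, adjusted p = 8.33e-04). The annotated gene ends at its stop codon, 44 bases before the end of the stem-loop, and Gm61650, which overlaps it on the same strand, is not in the table.

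The pair H4c17 and H4c18 fell. H4c17 (ENSMUSG00000069306, chr13:21995916-21996317, plus strand) was at 4.63, 7.95, 7.08, 13.69 and 9.10 FPKM in WT, and at 2.52, 0.29, 0.62, 0.50 and 2.34 FPKM in cKO-labelled libraries. In fragments, that is about 31 to 103 against 2 to 15. H4c18 (ENSMUSG00000069305, chr13:22015937-22016366, minus strand) went from 2.65, 7.57, 8.88, 3.23 and 8.66 FPKM to 1.85, 0.54, 0.58, 1.71 and 0.58 FPKM. For both genes, every library labelled cKO was below every WT library, as in 21.6% of all genes tested. The log2 fold changes were -2.99 for H4c17 (standard error 0.534, adjusted p = 0.00108) and -2.47 for H4c18 (0.459, adjusted p = 0.00136). Reads of these genes cannot be placed with certainty, since 88.1% of the 100-base windows of H4c17 and 89.1% of those of H4c18 occur elsewhere in the genome, against 64.3% for H4c12 and 15.1% for H4c9. The level of H4c9 was 1.73 to 4.06 times that of H4c17 and H4c18 combined in WT and 9.49 to 59.4 times in the libraries labelled cKO, a ratio that was not tested. H4c3, a less abundant H4 gene, was at 0.51, 0.81, 1.81, 1.89 and 1.62 FPKM in WT, and at 1.06, 0.14, 0.08, 0.08 and 0.77 FPKM in cKO-labelled libraries. The groups overlapped, and the call lower (log2 fold change -1.77, standard error 0.604, adjusted p = 0.0335) was lost when any of WT libraries 3 to 5 or cKO libraries 2 to 4 was left out (adjusted p = 0.072 to 0.0779, range over all alternatives 0.00842 to 0.352).

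**Figure D5:**
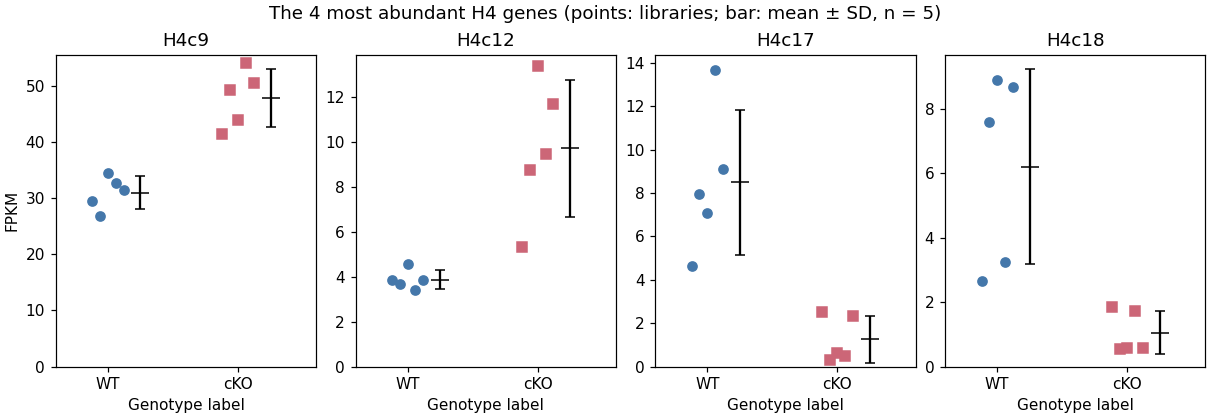
FPKM of H4c9, H4c12, H4c17 and H4c18 in each library (points) by genotype label, with mean ± SD (n = 5), each panel on its own axis from 0. Every library labelled cKO is above WT for H4c9 and H4c12 and below WT for H4c17 and H4c18.

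Among linker histones, which bind DNA between nucleosomes, the variant H1f10 had the largest change of the histone genes tested. H1f10 (ENSMUSG00000044927, chr6:87957403-87958619, minus strand) encodes H1.10 and was at 4.69, 5.40, 3.56, 4.83 and 5.24 FPKM in WT, and at 0.59, 0.10, 0.36, 0.06 and 0.15 FPKM in cKO-labelled libraries. The lowest WT library was above the highest of the others, as in 21.6% of all genes tested. The means were 4.744 ± 0.723 and 0.252 ± 0.222 FPKM (SD, n = 5 each). The log2 fold change was -3.99 (standard error 0.375 and adjusted p = 5.7e-05), and it was -2.2 with a pseudocount of 1 and -4.6 with 0.01. In the libraries labelled cKO, 3 of the 5 values lay below the 0.155 FPKM that 3 fragments give for this gene. Gm5577, a gene on the opposite strand there, fell too (log2 fold change -1.73, standard error 0.373, adjusted p = 0.00328), at 0.31 to 1.2 FPKM in WT and 0.06 to 0.28 FPKM in cKO-labelled libraries. Whether the counting used strand is not given in the sources used here, so the reads of these genes cannot be told apart. Gm54545 also overlaps H1f10, on the same strand. H1f0, which encodes H1.0, was at 34.98 to 49.83 FPKM in WT and 23.11 to 39.87 FPKM in cKO-labelled libraries (log2 fold change -0.19, standard error 0.153, adjusted p = 0.334), and did not pass.

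Of the clustered linker histone genes, H1f5 was called higher. H1f2, the most abundant of them, was at 18.24, 32.24, 24.34, 26.48 and 30.43 FPKM in WT, and at 40.11, 43.63, 37.30, 40.36 and 20.17 FPKM in cKO-labelled libraries, with cKO library 5 alone among the WT values. It did not pass (log2 fold change 0.44, standard error 0.218, adjusted p = 0.125). H1f5 was at 1.62, 0.57, 0.44, 0.65 and 0.09 FPKM in WT, and at 1.75, 1.57, 2.52, 1.71 and 1.44 FPKM in cKO-labelled libraries. WT library 1 lay among the latter, the other 4 lay below, and the gene was called higher (log2 fold change 1.6, standard error 0.476, adjusted p = 0.0181). Gm61650 overlaps this gene as well. With Xist above 1 FPKM as a covariate, a term chosen after seeing the data, the H1f5 call was lost (log2 fold change 0.80, adjusted p = 0.287, where the range over all alternatives was 0.00334 to 0.287). Of the 6 clustered H1 genes 5 were tested, 4 with a positive log2 fold change. The median, 0.90, was the value of a gene that averaged 0.161 FPKM.

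H2A genes supplied most of the remaining calls, at low levels. None of the 18 clustered H2A genes exceeded a mean of 1.4 FPKM, and of the 14 tested, 4 were called lower and 1 higher. These are 28.6% and 7.14%, against 16.8% and 4.60% of all genes tested. H2ac20 was at 1.5, 0.81, 0.75, 0.62 and 0.77 FPKM in WT, and at 0.56, 0.11, 0.36, 0.39 and 0.24 FPKM in cKO-labelled libraries. Its groups did not overlap (log2 fold change -1.24, standard error 0.342, adjusted p = 0.0125), yet it averaged 5.1 fragments a library. H2ac20 and H2ac25, 14.3% of the 14 tested, lay wholly below WT in this way, against 21.6% of all genes tested. H2ac6 (0.39 to 1.96 against 0.16 to 0.51 FPKM, log2 fold change -1.46, adjusted p = 0.0159) and H2ac10 (0.67 to 1.65 against 0.17 to 0.91 FPKM, -1.19, adjusted p = 0.0303) overlapped. H2ac6 lies opposite H2bc4, which rose, on the other strand. H2ac21 was listed at 0 in all 5 libraries labelled cKO and reached the 3-fragment level of 0.424 FPKM only in WT library 3 (0.73 FPKM), so no fold is given. It averaged 0.226 FPKM in WT and passed the 0.1 FPKM filter through WT alone. Its direction, counted among the 4 lower, was thus fixed in advance. H2ac4 was at 0.51, 0.13, 0.68, 0.45 and 0 FPKM in WT, and at 1.22, 1.48, 0.92, 0.71 and 0.53 FPKM in cKO-labelled libraries, overlapped, and was called higher (log2 fold change 1.5, standard error 0.544, adjusted p = 0.0433). H2ac20 and H2ac6 fell under the fold limit with a pseudocount of 1 (log2 fold changes -0.50 and -0.60). Both also lost their calls under quantile normalization (adjusted p = 0.0595 and 0.0995), and H2ac6 with Xist as a covariate (0.155), where the ranges over all alternatives were 0.00576 to 0.0595 and 0.00823 to 0.155. Single libraries decided 3 of these calls. H2ac4 lost its call without WT library 2 or 5 or any of cKO libraries 1 to 4 (adjusted p = 0.0587 to 0.0991), H2ac10 without WT library 1, 3 or 4 or cKO library 3, 4 or 5 (0.0507 to 0.0702), and H2ac21 without WT library 1, 2 or 4 or any cKO library (0.0572 to 0.0702), where the ranges over all alternatives were 0.0112 to 0.176, 0.0141 to 0.168 and 0.0105 to 0.17. H2ac25, at 1.21 to 2.42 against 0.43 to 1.17 FPKM with no overlap, stood just under the fold limit (log2 fold change -0.93, standard error 0.275, adjusted p = 0.0174) and was past it without WT library 1 or 3 or cKO library 5 (-1.02 to -1.06). Trim17 overlaps H2ac25 on the same strand and Gm56433 on the other. H2ac8, the most abundant at 1.4 FPKM, did not pass (0.47, adjusted p = 0.0966).

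No clustered H2B or H3 gene was called by limma, among 15 and 9 tested, where 21.4% of all genes were called. At an unadjusted p under 0.05, 1 H2B gene was higher and 2 lower, and 0 H3 genes were higher and 1 lower. H2bc4 (ENSMUSG00000018102, chr13:23867631-23878163, plus strand), the most abundant H2B gene, was at 10.44, 11.48, 11.08, 12.62 and 13.34 FPKM in WT, and at 17.31, 21.99, 20, 27.46 and 14.13 FPKM in cKO-labelled libraries. All of the latter were above WT, as in 10.6% of all genes tested, and the gene rose by less than the fold limit (log2 fold change 0.74, standard error 0.156, adjusted p = 0.00295). H2bc21, an H2B gene of chromosome 3 with no stem-loop found, was at 4.86 to 9.23 FPKM in WT, and at 9.98, 3.18, 4.23, 4.29 and 2.01 FPKM in cKO-labelled libraries. Library cKO 1 was above every WT library there and the other 4 were below, and the gene did not pass (log2 fold change -0.65, standard error 0.351, adjusted p = 0.157). H2bc11 had the same order (0.91 to 2.65 FPKM in WT, 3.90, 0.38, 0.54, 0 and 0.14 FPKM in cKO-labelled libraries) and passed only without cKO library 1 (log2 fold change -2.40, adjusted p = 0.00446, range over all alternatives 0.00446 to 0.358, against -1.64 and 0.122 with all libraries). H2bc27 and H3c3 were likewise highest in cKO library 1, at 3.41 and 3.44 FPKM, and did not pass (log2 fold changes -0.17, adjusted p = 0.807, and -0.42, adjusted p = 0.411). That library also had the highest sum of neutrophil markers among those labelled cKO, 2680 FPKM against 149.8 to 1139. Its sums of S-phase genes (2509 against 2085 to 2235), genes of G2 and mitosis (3544 against 2829 to 2958) and erythroid markers (4748 against 3307 to 4707) were highest too. Those of the other cell type markers were not. The part of these sums in the histone values was not tested. Without cKO library 1, 9 clustered genes were called lower and 2 higher.

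Among H2A variants, H2ax and H2az2 fell and H2az1 did not pass. H2ax (ENSMUSG00000049932, chr9:44245991-44247374, plus strand) encodes the histone that is phosphorylated beside DNA breaks. It was at 127.99, 135.20, 121.47, 145.59 and 136.00 FPKM in WT, and at 101.60, 74.86, 70.05, 66.88 and 73.48 FPKM in cKO-labelled libraries, without overlap. Of all genes tested, 21.6% lay wholly below WT in this way. H2ax fell, short of the fold limit (log2 fold change -0.80, standard error 0.107, adjusted p = 2.31e-04). H2az2, which encodes H2A.Z.2 (ENSMUSG00000041126, chr11:6371231-6394481, minus strand), fell alike, from 50.14, 42.87, 43.57, 50.76 and 52.24 FPKM to 42.12, 22.80, 23.08, 25.47 and 28.47 FPKM. Library cKO 1 came within 1 FPKM of WT, the others lay far below, and the log2 fold change was -0.79 (standard error 0.155 and adjusted p = 0.0019). H2az1 (ENSMUSG00000037894, chr3:137570072-137572690, plus strand), which encodes the closely related H2A.Z.1, was at 98.05, 88.96, 93.97, 90.31 and 84.01 FPKM in WT, and at 117.17, 98.85, 89.25, 117.47 and 101.55 FPKM in cKO-labelled libraries. It overlapped and did not pass (log2 fold change 0.20, standard error 0.0831, adjusted p = 0.0751), and 56.5% of its 100-base windows occur elsewhere in the genome. The level of H2az1 was 1.61 to 2.16 times that of H2az2 in WT and 2.78 to 4.61 times in the libraries labelled cKO, a ratio that was not tested.

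The replication-independent H3 genes, which encode the same protein and supply H3 outside S phase, had small differences. H3f3b (ENSMUSG00000016559, chr11:115912738-115918788, minus strand) was at 247.38, 254.06, 282.12, 254.87 and 249.26 FPKM in WT, and at 338.02, 327.59, 311.73, 310.25 and 259.16 FPKM in cKO-labelled libraries. Only cKO library 5 fell within the WT range, and the gene rose by 0.26 on the log2 scale (standard error 0.0773, adjusted p = 0.0179). Under quantile normalization and with the Xist covariate this p was 0.0536 and 0.0581, in a range over all alternatives from 0.00251 to 0.0581. H3f3a (ENSMUSG00000060743, chr1:180628051-180642178, minus strand) was at 182.55 to 198.97 FPKM in WT, and at 149.99 to 216.79 in the libraries labelled cKO, and did not pass (log2 fold change -0.10, standard error 0.0857, adjusted p = 0.368). H3f4, with its stem-loop, averaged 0.291 FPKM and did not pass (0.60, adjusted p = 0.6). The summed variant level was 764.9 ± 14.2 FPKM in WT and 734.4 ± 75.3 in the libraries labelled cKO (SD, n = 5 each), within the spread of the latter.

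Genes that make, cut and protect histone mRNA held no call. Of 19 on a list drawn from general knowledge, 0 passed both limits by limma, 5 were higher and 2 lower on adjusted p alone, and 6 higher and 3 lower at an unadjusted p under 0.05 (median log2 fold change 0.14, all genes -0.11). For this list and those below, 4.60% of all genes tested were called higher and 16.8% lower. On adjusted p alone these shares were 16.7% and 28.3%, and at an unadjusted p they were not computed. Slbp, whose protein binds the stem-loop, was at 39.72 ± 6.08 FPKM in WT and 45.79 ± 3.84 in the libraries labelled cKO (log2 fold change 0.21, adjusted p = 0.113). Cpsf2, a subunit of the cleavage complex (0.27, adjusted p = 0.00944), and Upf1, a helicase needed for decay of histone mRNA (0.21, adjusted p = 0.0112), rose below the fold limit. Of 43 S-phase genes, 0 were called, 11 were higher and 3 lower on adjusted p alone, and 17 and 6 at an unadjusted p under 0.05 (median 0.18), with summed levels of 1751 to 2378 FPKM in WT and 2085 to 2509 in the libraries labelled cKO. Pcna, the sliding clamp of replication, and Mcm6, of the replicative helicase, did not pass (log2 fold changes 0.19, adjusted p = 0.176, and 0.03, adjusted p = 0.823), and Rrm2, a subunit of ribonucleotide reductase, rose by 0.41 (adjusted p = 0.0206). Of 54 genes of G2 and mitosis, 1 was called higher (Psrc1, 1.69, adjusted p = 4.66e-05) and 1 lower (Pimreg, -3.03, adjusted p = 1.63e-04), 6 were higher and 20 lower on adjusted p alone, and 6 and 27 at an unadjusted p under 0.05, with a median of -0.15. Histone chaperones, which carry histones to and from DNA, had 0 calls among 32 tested, with 7 higher and 3 lower on adjusted p alone and 9 and 6 at an unadjusted p under 0.05. Npm1, a nucleolar chaperone, rose from 549.5 ± 69.8 to 859.2 ± 111 FPKM (SD, n = 5 each, log2 fold change 0.64, adjusted p = 0.00115), and Anp32e, which removes H2A.Z, and Ssrp1, of the FACT complex, did not pass (-0.05, adjusted p = 0.54, and -0.07, adjusted p = 0.434).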

How the data were processed

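RNA-seq of Lin- bone marrow cells was analysed in 10 libraries, 5 per genotype label. The authors deposited FPKM per gene, rounded to 2 decimals, from paired-end reads filtered for adapters and quality and aligned to GRCm39. The submitters' processing notes name cutadapt 1.9.1, HISAT2 2.0.1 and HTSeq 0.6.1. Library selection, strandedness, annotation and gene lengths are not given in the sources used here, and reads placed at several copies of a histone gene may have been dropped or split. The authors tested counts with DESeq2. FPKM are not counts, so that test was not run.

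Of 28093 genes above 0, 27828 had their identifier in the annotation used here for symbols, biotypes and coordinates (GRCm39). Depth per library was found from low values of genes with a single transcript, of which 95.4% to 95.9% were whole fragments (within 0.2, up to 20 fragments). Of 437 low values of the histone genes, 406 (92.9%) came out whole. No library pair of a group was alike within sampling noise (chi-square per degree of freedom at least 4.07). Intervals were not computed, and fragment levels cover counting error only.

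limma 3.58.1 (lmFit, eBayes with trend, R 4.3.3) was run on log2(FPKM + 0.1) for the 18742 genes averaging 0.1 FPKM or more, with genotype as the only term and Benjamini-Hochberg adjustment over all of them, and was tested on simulated data. Calls needed an adjusted p under 0.05 together with a 2-fold difference. Tried as alternatives were pseudocounts of 0.01 and 1, the filter dropped or raised to 1 FPKM, scaling by median ratios or quantiles, limma without trend, a replicate block, calls on adjusted p alone and leaving out each library. A covariate for Xist above 1 FPKM was chosen after seeing the data. Members and lists were chosen with earlier results of these data known. Named were the variants with a mean of at least 1 FPKM, the 12 clustered genes of highest mean, every called member, from each other list at most the 3 genes of highest level and the 2 of largest change among called genes, and Dhx9, Xist and Ddx3y. H3f4 and H2ac25 and the genes without a stem-loop or listed at 0 were named after their values were seen. Stem-loops were searched in the genome past every annotated stop codon, shared windows as exact 100-base matches on either strand, and promoters in a RefSeq table of GRCm38.p6. Python 3.11.15, pandas 2.3.3 and scipy 1.17.1 were used.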

Additional observations from a re-analysis of the deposited data

Results flagged for a closer look

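In 12 of 56 groups of 5 libraries examined for the named histone genes and the class sums, 1 library stood apart from the other 4 by more than 0.71 of the group's range (Dixon's 95% value), where chance gives about 1 in 20, or 2.8. Among the libraries labelled cKO, library 1 was the distant one for 4 genes: H2ax at 101.6 FPKM (others 66.88 to 74.86), H2bc11 at 3.9 (0 to 0.54), H2bc21 at 9.98 (2.01 to 4.29) and H3c3 at 3.44 (0.74 to 1.28). Library 5 was low for H1f0, at 23.11 FPKM (36.18 to 39.87), and for H1f2, at 20.17 (37.3 to 43.63). H1f5 stood at 2.52 FPKM in library 3 (1.44 to 1.75) and H2ac6 at 0.51 in library 4 (0.16 to 0.23). In WT, library 1 was high for H1f0, at 49.83 FPKM (34.98 to 39.28), and for H2ac20, at 1.5 (0.62 to 0.81). WT library 3 was high for H2ac21, at 0.73 FPKM (0 to 0.14), and for H3f3b, at 282.1 (247.4 to 254.9).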

How the results depend on the processing

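The calls of H1f10, H4c12, H4c17 and H4c18 held under all 19 alternatives, whereas the counts of clustered genes depended on the setting. Against 3 higher and 7 lower, a pseudocount of 1 gave 1 and 2, quantile normalization 6 and 2 (median log2 fold change 0.089), the Xist covariate, chosen after seeing the data, 1 and 3, and the filter at a mean of 1 FPKM, which tests fewer genes, 2 lower. On adjusted p alone, 6 clustered genes and 1 variant were higher, and 8 clustered genes and 3 variants were lower. Leaving out 1 library gave 2 to 4 higher and 4 to 9 lower clustered genes, the fewest lower without WT replicate 4 and the most without cKO replicate 1, medians of -0.527 to -0.154 (clustered) and -0.21 to -0.0726 (variants), and group means of 123.2 to 131.2 FPKM (WT) and 145 to 155.7 (cKO) for the clustered sum and of 760.7 to 770.2 and 704 to 752.7 for the variant sum, whose WT mean was 746.4 with median-ratio scaling. Genes called higher and lower in all numbered 356 and 1486 with a pseudocount of 1, 462 and 1827 with the filter at 1 FPKM, and 3138 and 5300 on adjusted p alone, 1581 were higher under quantile normalization, and 762 to 948 and 2892 to 3268 were called without 1 library. H2bc27, not called, turned from -0.17 to 0.33 under quantile normalization, to between -0.579 and 0.195 without 1 library (above 0 without cKO replicate 5 only) and to 0.333 with the Xist covariate, and H3c3 to 0.089 under quantile normalization. Apart from what the settings themselves change, the cause was not tested. With the replicate number as a block 5 clustered genes were called higher. The numbers do not pair the libraries, since deviations of same-numbered libraries correlated at 0.117, 0.0258, -0.0103, -0.00304 and 0.0929, and only libraries 1, 2 and 5 correlated best with their own number. Depth limits the low genes: the median clustered gene had 4.55 fragments a library, and 24 clustered genes had at least 50% of their windows elsewhere in the genome.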

Other observations

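Among 4 histone variants with other symbols, 0 were called higher and 2 lower, where 4.60% and 16.8% of all genes tested were. Macroh2a1, which encodes an H2A variant with a large extra domain found on silent chromatin, was at 124.45, 115.98, 97.06, 122.28 and 127.18 FPKM in WT and at 26.86, 24.82, 36.49, 18.93 and 42.36 FPKM in cKO-labelled libraries. The groups did not overlap, and 21.6% of all genes tested lay wholly below WT in this way. limma called Macroh2a1 lower (log2 fold change -2.02, standard error 0.191, adjusted p = 5.83e-05, Benjamini-Hochberg). Its relative Macroh2a2 was also called lower, from 1.084 ± 0.231 to 0.354 ± 0.14 FPKM (SD, n = 5 each, log2 fold change -1.42, adjusted p = 0.0016). H2aj, an H2A gene outside the clusters by name, rose by 0.33 (adjusted p = 0.00343), and Cenpa, the centromeric H3, did not pass (-0.13, adjusted p = 0.311). These were the 4 genes found of a list of 5, and the markers of cell types that moved between the groups stand beside them as beside the other genes.

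Of 25 histone acetyltransferase and deacetylase genes, limma called 0 higher and 2 lower, with 3 higher and 8 lower on adjusted p alone, 5 and 8 at an unadjusted p under 0.05, and a median log2 fold change of -0.06. Of all genes tested, 4.60% were called higher and 16.8% lower, and 16.7% and 28.3% on adjusted p alone. Both called genes encode class II deacetylases: Hdac5 went from 7.486 ± 0.988 to 2.24 ± 0.675 FPKM (SD, n = 5 each, log2 fold change -1.73, adjusted p = 1.13e-04) and Hdac9 from 0.806 ± 0.11 to 0.282 ± 0.153 FPKM (-1.32, adjusted p = 0.00326).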
